A study of Mus musculus with 36 samples.

Results

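The comparison described here set mouse pancreatic fibroblasts that had been cultured in direct contact with the tumour sub-clone H against the same fibroblasts cultured alone. It was made of the 4 libraries labelled as co-cultured with clone H and the 4 labelled as mono-culture, 8 of the 36 libraries of the series. The fibroblasts of all groups were of the C57BL/6 strain, and the co-culture lasted 48 h. A time for the mono-cultures is not given here. In the library titles the mono-cultures carry the last numbers, after all co-cultures, which are numbered by replicate. What these numbers stand for is not said, and an effect of them cannot be told apart from co-culture. The tumour cells carried green fluorescent protein (GFP), by which they were separated from the fibroblasts in a fluorescence-activated sort, so the RNA measured was that of the GFP-negative fraction. The other 28 libraries came from co-cultures with the sub-clones E, K, M, N, T and V and with a line named KPC1, which the labels do not explain, 4 libraries each. Clone H is a single sub-clone, the labels give no genotype of the tumour cells, and nothing in them says that the 4 libraries of a group came from separate cultures, so p-values measure only the spread between these libraries.

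Fibroblasts of the pancreas make the collagen-rich matrix of the tissue and, beside tumour cells, take on contractile, inflammatory or antigen-presenting programmes that are told apart by their transcripts. Tumour cells reach them through secreted ligands such as TGF-beta, interleukins and Hedgehog proteins, through contact, and through competition for nutrients. Shortage of amino acids or faults in protein folding act through the kinases of the integrated stress response, which raise translation of the transcription factor ATF4. ATF4 in turn switches on genes for amino acid synthesis, amino acid import and the charging of transfer RNA. Interferons act through their receptors on a separate group of antiviral genes, many of which cells also express at a low level without infection.

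Read depth was similar in the 2 groups, with 17441494 to 21985538 counts in the clone H libraries and 12577931 to 20727926 in mono-culture. Levels are given below as counts per 1000000 (CPM) after TMM scaling, in the order of replicates 1 to 4. In the clone H group replicate 4 stood apart, with a scaling factor of 1.04 against 0.958 to 0.963 in the other 3. This was not particular to clone H. Replicate 4 also had the highest factor with clones E (1.061), K (1.056), M (1.07) and T (1.041) and, narrowly, V (0.986) and KPC1 (0.991). With clone N it did not (0.99 against 1.029 in replicate 1). In mono-culture replicate 4 had the lowest share of mitochondrial transcripts, 2.16% against 3.87% to 4.31%. Fibroblast markers were abundant in all 8 libraries: the collagen gene Col1a1 had 6237, 5997, 4777 and 4160.1 CPM with clone H and 7013, 7931, 6667 and 7445 CPM in mono-culture, and the filament gene Vim had 3186, 2777, 3239 and 2783 CPM with clone H and 2262, 2655, 2884 and 2127 CPM in mono-culture. The leukocyte genes Cd3e and Tyrobp had no count in any of these libraries and Ptprc had at most 2. The epithelial surface marker Epcam had no count in the 4 clone H libraries and at most 9 in a mono-culture library. Other epithelial markers, among them Krt8, Krt18 and Krt19, were present and higher with clone H, as described below. A count of 0 allows up to 3 counts, which is 0.131 to 0.18 CPM in the clone H libraries.

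Of 14439 genes tested with edgeR, 7826 (54.2%) differed between clone H co-culture and mono-culture at an adjusted p under 0.05. The clone H libraries were higher in 4011 genes (27.8%) and lower in 3815 (26.4%), and a change of at least 2-fold was found in 1045 and 1434 genes in these directions. On RPKM values with limma-trend, which carry no TMM scaling, 3077 genes were higher and 4419 lower, so the split between the directions depends on the scaling. The gene lists below are therefore read against these shares, and lists in which both directions were represented near 27.8% and 26.4% say nothing particular about their members. In 6834 of the 7826 genes the 4 clone H libraries all lay beyond the 4 mono-culture libraries. Over all 14439 genes tested this held for 7419 (51.4%), so lack of overlap in a gene is common here.

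**Figure D1:**
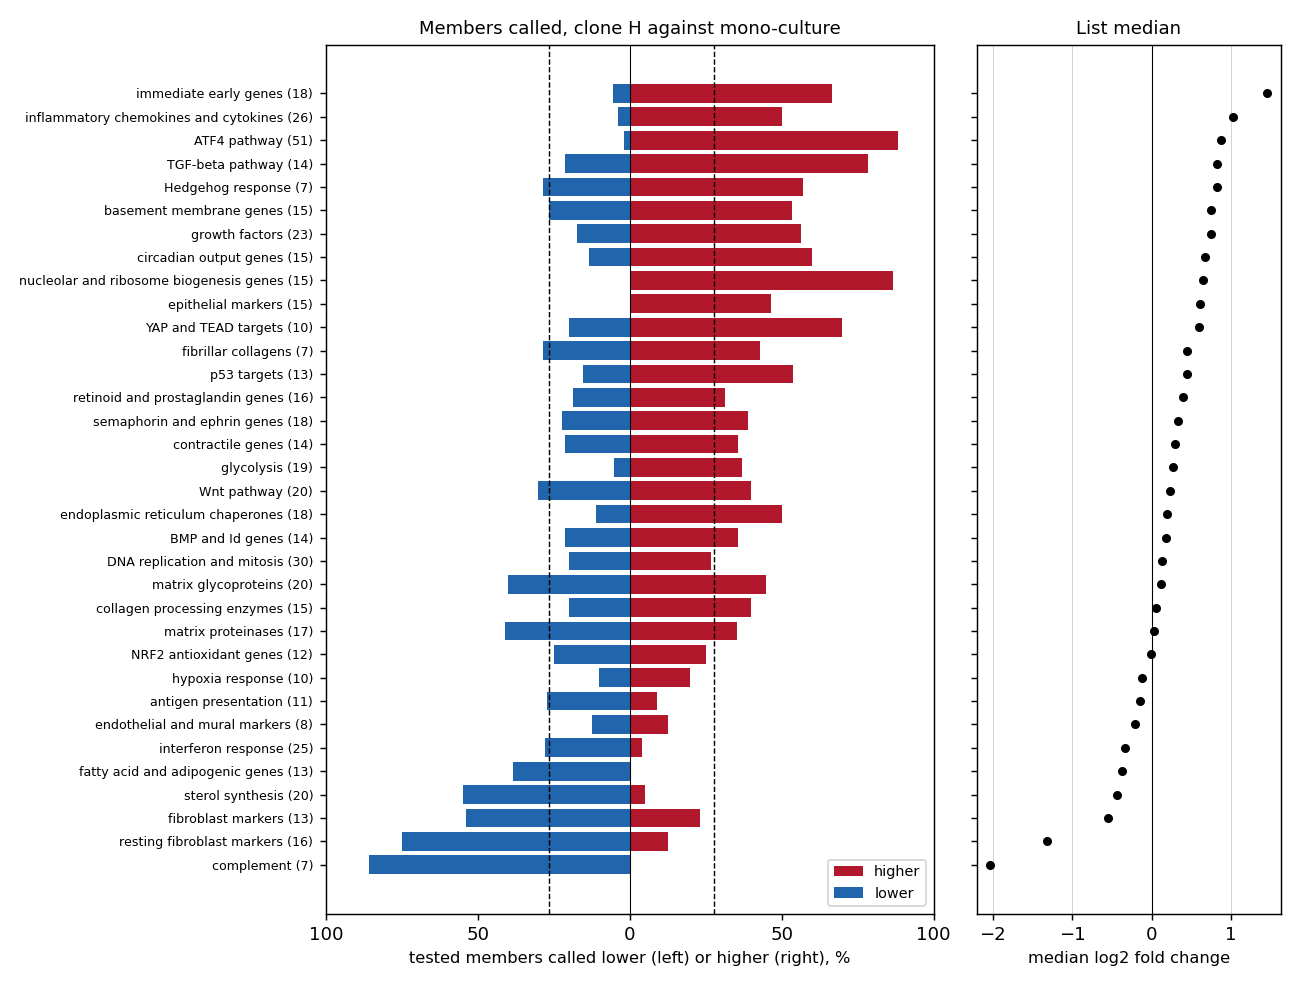
Gene lists with at least 7 members tested, ordered by their median. Bars give the percentage of tested members (number in parentheses) called higher (right) or lower (left) with clone H than in mono-culture, dashed lines the 27.8% and 26.4% of all genes, and points the median log2 fold change of the members. The ATF4 pathway and nucleolar lists were called higher almost throughout, and the complement and resting fibroblast lists were called lower in most members.

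The 10 genes with the highest fitted fold change were Palmd, Cldn6, Krt8, Ifi202b, Cdh13, Krt18, Padi2, Cadm1, Wfdc2 and Nptx1. Palmd (ENSMUSG00000033377, chr3:116918258-116968987 on GRCm38), which encodes palmdelphin, had 13.3, 8.94, 33.8 and 22.3 CPM with clone H and no count in mono-culture, at least 113-fold higher against a floor of 3 counts per library. Cldn6 (chr17:23679249-23682446), a tight junction claudin of embryonic epithelium, had 10.4, 8.38, 35.4 and 23.1 CPM and again no count in mono-culture, at least 111-fold higher. Keratins 8 and 18 form the filaments of simple epithelia: Krt18 had 81.5, 39.4, 147 and 106 CPM with clone H and 0.165, 0.22, 0.076 and 0.183 CPM in mono-culture. These genes were chosen among those in which every clone H library was above every mono-culture library. The fitted values of genes near 0 in mono-culture rest on the prior count, so their order is not a ranking of effect. Nptx1, a secreted pentraxin better known from neurons, had 206, 82.7, 402 and 164 CPM with clone H and 0.715, 0.44, 0.608 and 0.777 CPM in mono-culture (log2 fold change 8.36, SE 1.17, adjusted p = 1.01e-06). Padi2, which converts arginine to citrulline in proteins, had 27.1, 12.1, 50.5 and 24.2 CPM with clone H and 0.055, 0.11, 0 and 0.0457 CPM in mono-culture, Cadm1, an adhesion molecule, had 12.2, 5.6, 27.8 and 13.9 CPM with clone H and 0.11, 0, 0 and 0 CPM in mono-culture, and Wfdc2, a secreted protease inhibitor domain protein of epithelia, had 11.6, 8.89, 31.9 and 27.3 CPM with clone H and 0, 0.11, 0 and 0.0457 CPM in mono-culture. Ifi202b, a member of a family of near-identical interferon-inducible genes whose reads can be split between copies, had 3.89, 3.99, 23.1 and 19.2 CPM with clone H, and the cadherin gene Cdh13 had 10.1, 6.11, 19.2 and 10.8 CPM.

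These genes moved together among the clone H libraries. Replicate 2 was the lowest in 9 of the 10 and replicate 3 the highest in 10 of 10. Krt8 had 39.1, 15.04, 55.4 and 44.2 CPM, and Krt19 had 19.1, 5.5, 27.5 and 25.3 CPM with clone H and 0.22, 0.165, 0.228 and 0.183 CPM in mono-culture, in the same order. Of 22 epithelial markers 15 passed the filter on low counts, and 7 of these were higher and 0 lower with clone H, against 27.8% and 26.4% of all genes. Markers near 0 in mono-culture, such as Cldn6 with no count and Krt8 with at most 2, passed the filter through co-cultures alone. Such markers could not be called lower, so the shares of all genes are no fair comparison for this list. The 7 were Cldn6, Krt8, Krt18, Krt19, Cdh1, Elf3 and Spp1, and the cadherin gene Cdh1 had 2.69, 2.57, 9.08 and 4.62 CPM with clone H and 0.44, 0.44, 0.152 and 0 CPM in mono-culture. Epcam, Cldn3, Cldn4, Esrp1, Tff1 and Tff2 had no count in the clone H libraries. The summed level of the tested markers was 1861 to 2856 CPM with clone H and 216 to 276 CPM in mono-culture, most of it Spp1, osteopontin, a secreted matrix protein that fibroblasts also make. The part of RNA from tumour cells in the 10 genes was not tested. The Y-linked gene Uty, which marks male cells, had 34.1, 33.4, 35.6 and 40.1 CPM with clone H and 35.98, 37.1, 34.4 and 28.7 CPM in mono-culture, and Xist, which marks cells with an inactive X chromosome, had at most 5 counts in any of these libraries.

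**Figure D2:**
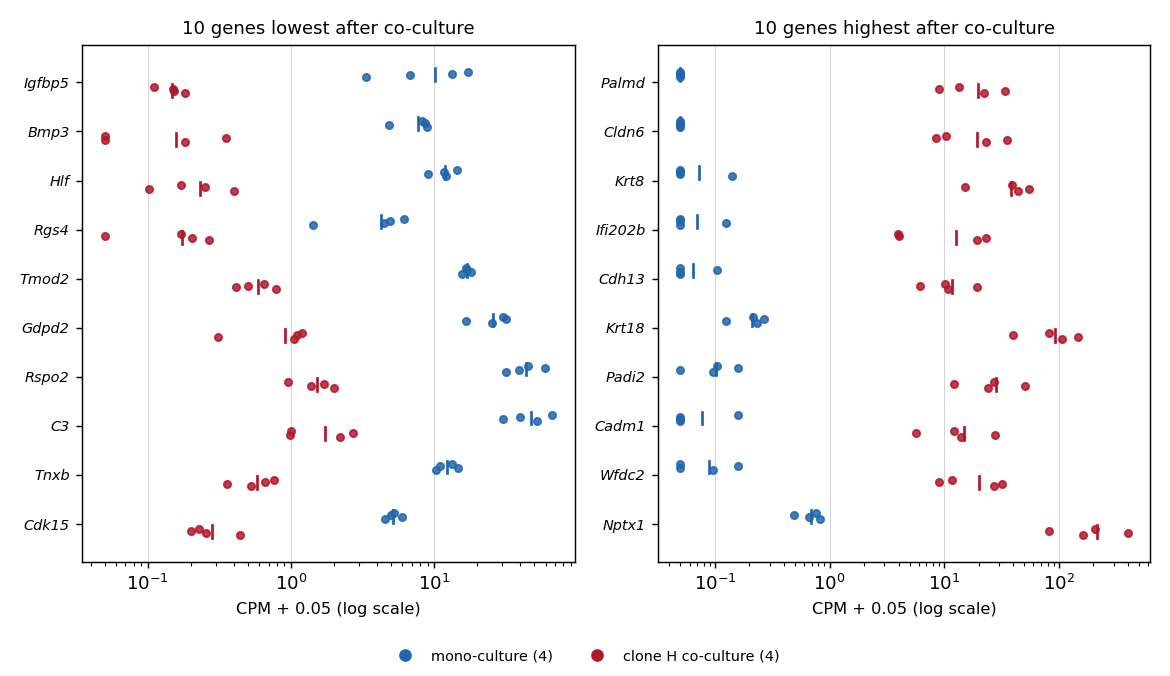
CPM of the 10 genes with the lowest (left) and the 10 with the highest (right) fitted fold change, a point per library with the group mean as a short bar; 0.05 was added so that a value of 0 can be drawn on the log axis. Red points are clone H co-cultures and blue points mono-cultures, 4 each, and the 20 genes were chosen among those in which the groups do not overlap.

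The 10 genes with the lowest fitted fold change were Igfbp5, Bmp3, Hlf, Rgs4, Tmod2, Gdpd2, Rspo2, C3, Tnxb and Cdk15. Igfbp5 (chr1:72857932-72874884), which binds insulin-like growth factors, had 0.0599, 0.101, 0.103 and 0.131 CPM with clone H and 17.3, 13.2, 6.69 and 3.29 CPM in mono-culture (log2 fold change -6.56, SE 0.89, adjusted p = 4.54e-07). Hlf (chr11:90336536-90390895), a transcription factor of the clock output, had 0.12, 0.202, 0.0516 and 0.349 CPM with clone H and 14.4, 11.7, 8.97 and 12.1 CPM in mono-culture (log2 fold change -5.92, SE 0.51, adjusted p = 2.06e-10). Lack of overlap between the groups was a condition for choosing these 10 genes. The R-spondin Rspo2 (chr15:43020794-43170826), which strengthens Wnt signals, had 0.898, 1.67, 1.34 and 1.96 CPM with clone H and 45.1, 59.3, 38.8 and 31.5 CPM in mono-culture (log2 fold change -4.87, SE 0.46, adjusted p = 1.25e-09). Complement component C3 had 0.958, 2.68, 0.929 and 2.14 CPM with clone H and 66.8, 39.8, 30.02 and 52.6 CPM in mono-culture (log2 fold change -4.80, SE 0.63, adjusted p = 3.37e-07), and the matrix protein gene Tnxb, tenascin X, had 0.718, 0.606, 0.31 and 0.48 CPM with clone H and 13.2, 10.9, 14.7 and 10.2 CPM in mono-culture. The BMP family ligand Bmp3 had 0, 0.303, 0 and 0.131 CPM with clone H and 8.2, 8.63, 4.79 and 8.91 CPM in mono-culture, Rgs4, which shortens G protein signals, had 0.12, 0, 0.155 and 0.218 CPM with clone H and 6.11, 4.89, 4.41 and 1.37 CPM in mono-culture, and the actin-capping Tmod2 had 0.599, 0.454, 0.361 and 0.742 CPM with clone H and 16.8, 16.99, 17.9 and 15.7 CPM in mono-culture. In contrast to the genes at the top, no clone H library was the lowest or highest throughout: replicate 3 was lowest in 5 of the 10 and replicate 4 highest in 6. Gdpd2, a glycerophosphodiester phosphodiesterase, had 1.14, 1.06, 0.258 and 1.003 CPM with clone H and 30.1, 31.5, 16.7 and 25.2 CPM in mono-culture, and the kinase gene Cdk15 had 0.18, 0.151, 0.206 and 0.393 CPM with clone H and 5.23, 4.95, 5.93 and 4.52 CPM in mono-culture.

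Most genes of the ATF4 pathway rose with clone H. All 51 members were tested, and 45 were higher, 1 lower and 5 not called, with a median log2 fold change of 0.88. The share of 88.2% higher compares with 27.8% over all genes. Asns, asparagine synthetase, had 464, 509, 521 and 349 CPM with clone H and 137, 205, 171 and 180.1 CPM in mono-culture (log2 fold change 1.41, SE 0.23, adjusted p = 5.47e-06). The groups did not overlap, and the lowest clone H library was replicate 4.

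Regulators were led by Ppp1r15a (GADD34), the phosphatase subunit that reverses the integrated stress response, with 161, 159, 222 and 101 CPM with clone H and 30.6, 47.7, 44.997 and 37.2 CPM in mono-culture (log2 fold change 2.00, SE 0.29, adjusted p = 1.33e-06). Of 13 regulators 12 were higher and 1 lower. Atf4 itself had 880.3, 974, 1009 and 749.6 CPM with clone H and 480.5, 673, 573 and 650.4 CPM in mono-culture (log2 fold change 0.60, SE 0.14, adjusted p = 0.000496), a change of 1.52-fold. The transcription factor gene Ddit3 (CHOP) had 185, 283, 291 and 353 CPM with clone H and 125, 135, 140.2 and 126 CPM in mono-culture (log2 fold change 1.08, SE 0.21, adjusted p = 5.79e-05), and here replicate 4 was the highest. Chac1, which degrades glutathione, had 117, 133, 138 and 71.4 CPM with clone H and 31.8, 45.2, 47.4 and 45.3 CPM in mono-culture, with a log2 fold change of 1.44. The pseudokinase gene Trib3, the sestrin gene Sesn2 and Atf3 had log2 fold changes of 0.99, 0.63 and 1.62. The exception was Atf5, a relative of ATF4 that is itself translated under stress, with 82.3, 56.998, 63.5 and 73.8 CPM with clone H and 318, 370.1, 324 and 454 CPM in mono-culture (log2 fold change -2.41, SE 0.24, adjusted p = 3.04e-09). All 4 clone H libraries lay below all 4 mono-culture libraries for Atf5, and no other of the 51 genes was called lower.

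Enzymes of amino acid and one-carbon metabolism were higher in 12 of 15, with a median of 0.74. Cth, which makes cysteine from cystathionine, had 75.4, 83.4, 77.6 and 36.9 CPM with clone H and 14.1, 23.04, 15.2 and 21.2 CPM in mono-culture (log2 fold change 1.89, SE 0.35, adjusted p = 5.16e-05). Gpt2, the mitochondrial alanine transaminase, had 274, 261, 253 and 154 CPM with clone H and 77.5, 97.7, 88.9 and 104 CPM in mono-culture (log2 fold change 1.35, SE 0.21, adjusted p = 3.57e-06). Serine synthesis rose through Phgdh, Psat1 and Psph, with log2 fold changes of 0.69, 0.71 and 0.74, and mitochondrial one-carbon enzymes through Shmt2 (0.99) and Mthfd2 (1.17). Got1, which makes aspartate, and Aldh18a1, the entry enzyme of proline synthesis, had log2 fold changes of 1.30 and 1.05. Not called were Pycr1 (0.50), Pck2 (0.20) and Cbs (-0.74), though with only the 8 libraries compared in the fit Pycr1 (adjusted p = 0.011) and Cbs (0.0167) were.

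Among 9 amino acid transporters 8 were higher. The cystine carrier Slc7a11 had 163, 118, 130 and 49.4 CPM with clone H and 30.8, 46.4, 33.7 and 42.4 CPM in mono-culture (log2 fold change 1.58, SE 0.41, adjusted p = 0.00171), with replicate 4 just above the highest mono-culture library. Its partner chain Slc3a2 had 507, 551, 582 and 369 CPM with clone H and 237, 283, 257 and 283 CPM in mono-culture (log2 fold change 0.92, SE 0.16, adjusted p = 1.7e-05). For the leucine carrier Slc7a5, with 554, 552, 528 and 254 CPM with clone H and 221, 311, 283 and 326 CPM in mono-culture, replicate 4 lay within the range of mono-culture and the call (log2 fold change 0.73, SE 0.28, adjusted p = 0.0293) was lost when clone H replicate 1, 2 or 3 or mono-culture replicate 1 or 3 was left out, at adjusted p = 0.0541 to 0.0908, and with no filter on low counts (0.0503) or with limma-trend (0.0684 and 0.0698). Of 14 cytosolic aminoacyl-tRNA synthetases 13 were higher, with a median of 0.84, from Hars (0.33) to Tars (1.17). Gars, which charges the transfer RNA of glycine, had 584, 641, 614 and 413 CPM with clone H and 218, 295, 259 and 278 CPM in mono-culture (log2 fold change 1.10, SE 0.15, adjusted p = 4.68e-07), and Aars was not called (log2 fold change 0.19).

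Replicate 4 of clone H was the lowest of its group in 46 of the 51 genes, and mono-culture replicate 1 was the lowest of its own in 47. The mean log2 CPM of the list was 7.16 in clone H replicate 4, 7.69 to 7.72 in the other 3 clone H libraries and 6.54 to 6.88 in mono-culture. Replicate 4 had the lowest mean of this list in every other co-culture as well. The counts did not rest on that library: without it 46 members were higher and 1 lower, and over the 8 fits that each left out a library 42 to 46 were higher and 1 lower.

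Short stretches of sequence before the start sites show what some of these genes share. The C/EBP-ATF response element (CARE) is the composite site to which ATF4 binds as a dimer with C/EBP proteins. Its letters TGATGNAA were sought on both strands in the 250 bases before the start of each gene, in RefSeq promoters on GRCm38.p6. Of the 51 genes 38 had a promoter in that table, and 11 (28.9%) held the letters, against 3.9% of all 27025 genes in the table and 2.5% of the tested genes in it. Among the 11 were Aars, Pck2 and Pycr1, which were not called, so the letters were not confined to genes that rose. The following stretches from 5 genes that rose are shown 5′ to 3′ on the strand of the gene, with the matching letters in capitals and up to 40 bases on either side.
Asns, chr6:7693210-7693272, minus strand: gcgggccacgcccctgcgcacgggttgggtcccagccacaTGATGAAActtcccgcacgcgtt
Chac1, chr2:119351009-119351096, plus strand: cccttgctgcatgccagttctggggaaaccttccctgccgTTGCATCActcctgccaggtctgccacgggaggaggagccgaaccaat
Slc7a11, chr3:50443614-50443719, minus strand: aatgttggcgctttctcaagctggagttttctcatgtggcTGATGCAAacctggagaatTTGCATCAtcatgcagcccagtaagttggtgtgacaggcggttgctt
Got1, chr19:43524660-43524747, minus strand: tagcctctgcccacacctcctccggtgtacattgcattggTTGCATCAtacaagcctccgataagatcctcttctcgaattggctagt
Nupr1, chr7:126625533-126625620, minus strand: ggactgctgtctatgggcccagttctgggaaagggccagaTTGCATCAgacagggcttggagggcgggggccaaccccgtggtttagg
In Asns the match began 23 bases before the start and read along the gene. Chac1, Got1 and Nupr1 held it on the opposite strand, at 193, 102 and 110 bases, and Slc7a11 held a copy on each strand. A match is a description of these windows, and not a bound site.

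**Figure D3:**
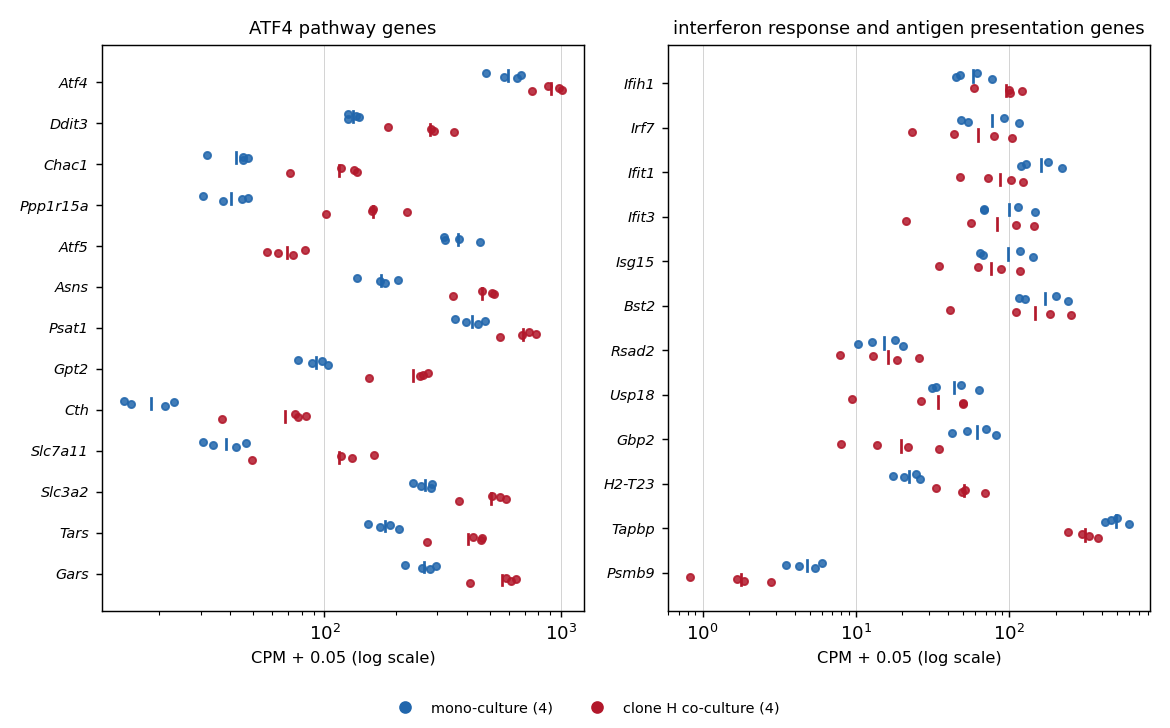
CPM plus 0.05 on a log axis for 13 genes of the ATF4 pathway (left) and 12 interferon response and antigen presentation genes (right), with a point per library and a short bar at the group mean. On the left all genes except Atf5 lie to the right with clone H (red) against mono-culture (blue); on the right the groups overlap for most genes.

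Nucleolar genes rose. Of 15 nucleolar and ribosome biogenesis genes 13 were higher and 0 lower, with a median of 0.65. Myc, a driver of ribosome production, had 209.8, 223, 387 and 154 CPM with clone H and 47.9, 71.6, 67.4 and 67.9 CPM in mono-culture (log2 fold change 1.93, SE 0.24, adjusted p = 1.36e-07), and the nucleolar protein gene Gnl3 and the assembly factor Rrp12 had log2 fold changes of 1.42 and 1.20. Of 13 p53 targets 7 were higher and 2 lower. They were led by Gdf15, a stress cytokine that ATF4 and CHOP also induce, with 134, 201, 174 and 80.2 CPM with clone H and 15.6, 23.1, 25.995 and 29.1 CPM in mono-culture (log2 fold change 2.65, SE 0.29, adjusted p = 1.23e-08), and included Cdkn1a (1.12) and Mdm2 (0.88), while Sesn1 (-1.10) and Cdkn2a (-0.72) were lower. Among 30 DNA replication and mitosis genes 8 were higher and 6 lower, shares close to those of all genes. The proliferation marker Mki67 had 655, 714, 716 and 489 CPM with clone H and 316, 278, 302 and 398 CPM in mono-culture (log2 fold change 0.99, SE 0.17, adjusted p = 1.08e-05), but the replication helicase gene Mcm5 (-0.39) and the cyclin gene Ccnb2 (-0.61) were lower.

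Interferon response genes were spread widely among the clone H libraries and mostly overlapped with mono-culture. Of 26 genes 25 were tested, and 1 was higher and 7 lower, with a median of -0.33. The sensor Ifih1 (MDA5) was the member called higher, with 59.1, 99.001, 121 and 101 CPM with clone H and 61.2, 47.3, 44.997 and 77.02 CPM in mono-culture (log2 fold change 0.72, SE 0.23, adjusted p = 0.00999), and without clone H replicate 3 its adjusted p was 0.0507. Gbp2, a guanylate-binding protein of the interferon gamma response, had 7.96, 13.7, 21.9 and 34.9 CPM with clone H and 69.97, 52.8, 42.2 and 81.6 CPM in mono-culture (log2 fold change -1.65, SE 0.34, adjusted p = 0.000188). For Gbp2 the groups did not overlap, whereas the ubiquitin-like Isg15 was not called, with 34.8, 62.1, 88.3 and 117 CPM with clone H and 116, 64.6, 66.7 and 141 CPM in mono-culture (log2 fold change -0.36, SE 0.32, adjusted p = 0.351). Bst2 (tetherin) varied 6.13-fold within clone H, with 41.1, 109.8, 183 and 252 CPM with clone H and 201, 115, 126 and 242 CPM in mono-culture.

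Replicate 1 was the lowest clone H library in 24 of the 25 interferon genes and replicate 4 the highest in 16. In mono-culture replicate 4 was the highest in 23. The mean log2 CPM of the list ran from 4.0 to 5.76 with clone H and from 5.14 to 6.10 in mono-culture. Replicate 1 also had the lowest mean of this list with every other line except clone K. The number of members called lower ranged from 4, without clone H replicate 1 or without mono-culture replicate 4, to 9, without clone H replicate 4. Antigen presentation followed the same libraries: replicate 1 of clone H was the lowest in 11 of 11 tested members. Of these 1 was higher and 3 lower, with 2 higher without clone H replicate 1 and 5 lower without clone H replicate 4. H2-T23, a non-classical class I gene, had 33.2, 51.3, 48.9 and 69.7 CPM with clone H and 24.6, 17.3, 20.5 and 26.2 CPM in mono-culture (log2 fold change 1.20, SE 0.22, adjusted p = 3.37e-05), and the immunoproteasome subunit Psmb9 had 0.778, 1.62, 1.81 and 2.75 CPM with clone H and 5.94, 3.46, 4.18 and 5.34 CPM in mono-culture (log2 fold change -1.43, SE 0.34, adjusted p = 0.000652). The loading factors Tapbp and Tap2 had log2 fold changes of -0.67 and -0.81.

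The interferon-stimulated response element (ISRE) is the site through which type I interferons act on these genes. Its letters GAAANNGAA were present before the start of 11 of 20 list members with a promoter in the table (55.0%), against 8.2% of all genes in it. The stretches of Isg15 and Ifit1 are shown because each gene holds 3 overlapping or neighbouring copies.
Isg15, chr4:156200836-156200936, minus strand: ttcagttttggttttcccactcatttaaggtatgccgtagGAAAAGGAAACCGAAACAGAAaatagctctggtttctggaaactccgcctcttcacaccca
Ifit1, chr19:34640740-34640853, plus strand: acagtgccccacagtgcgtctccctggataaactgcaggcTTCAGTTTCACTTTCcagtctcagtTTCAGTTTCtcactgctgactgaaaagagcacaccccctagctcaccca
Ifit1, an RNA-binding antiviral protein gene, had 47.5, 72.1, 103 and 123 CPM with clone H and 178, 128, 119 and 219 CPM in mono-culture (log2 fold change -0.90, SE 0.28, adjusted p = 0.00746). The sterol regulatory element, sought as CACNCCAC, was found before 2 of 13 sterol genes (15.4%), Hmgcs1 and Insig1, against 6.0% of all genes in the table.

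Complement genes fell. Of 12 listed 7 passed the filter, and 6 of these were lower and 0 higher, with a median of -2.03. C1ra, the protease that starts the classical pathway, had 35.4, 43.3, 31.2 and 47.9 CPM with clone H and 172, 159, 152 and 161 CPM in mono-culture (log2 fold change -2.03, SE 0.22, adjusted p = 1.21e-08). Its inhibitor gene Serping1 had 0.718, 1.11, 0.258 and 1.18 CPM with clone H and 4.13, 3.63, 4.1 and 2.79 CPM in mono-culture. Along with C3 these genes lay beyond mono-culture in all 4 clone H libraries. C1qtnf6 was not called (log2 fold change -0.27), but it was with only the 8 libraries compared in the fit (adjusted p = 0.0107).

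Markers of resting fibroblasts fell with them, with 12 of 16 tested members lower, 2 higher (1 without clone H replicate 1 or mono-culture replicate 1, 2 or 4) and a median of -1.32. Dpt, dermatopontin, had 10.7, 19.1, 7.38 and 25.6 CPM with clone H and 227, 175, 126 and 137 CPM in mono-culture (log2 fold change -3.40, SE 0.36, adjusted p = 8.8e-09). Cd34, a surface marker of resting stroma, had 86.1, 86.3, 57.1 and 81.4 CPM with clone H and 202, 213, 232 and 236 CPM in mono-culture (log2 fold change -1.51, SE 0.18, adjusted p = 5.5e-08), and the ferritin receptor gene Scara5 had 1.38, 1.87, 1.65 and 1.7 CPM with clone H and 8.97, 9.46, 8.59 and 8.68 CPM in mono-culture. Groups were separate for each of these 3 genes. Sprr1a, which encodes a small proline-rich protein, had 19.7, 17.4, 3.61 and 14.5 CPM with clone H and 276, 303, 213 and 168 CPM in mono-culture (log2 fold change -4.12, SE 0.55, adjusted p = 4.19e-07). Ly6a, which has near-identical neighbours in its cluster, had a log2 fold change of -1.88. Among the members called higher was Col15a1, described with the basement membrane genes.

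Among the 13 defining fibroblast markers 3 were higher and 7 lower. Fap, fibroblast activation protein, a protease of reactive stroma, had 25.8, 27.3, 17.4 and 22.7 CPM with clone H and 0.88, 1.26, 1.52 and 0.64 CPM in mono-culture (log2 fold change 4.48, SE 0.28, adjusted p = 1.28e-12). Thy1 was higher (0.47). Pdgfra, the receptor that marks inflammatory and resting fibroblasts, had 128, 129, 102 and 138 CPM with clone H and 353, 314, 312 and 269 CPM in mono-culture (log2 fold change -1.33, SE 0.22, adjusted p = 6.82e-06), and S100a4 had 115, 93.4, 92.3 and 147 CPM with clone H and 557, 525, 583 and 443 CPM in mono-culture. The proteoglycan genes Dcn and Lum had log2 fold changes of -1.46 and -2.49. In RNA from a bulk population, fewer cells of a kind and less RNA per cell cannot be told apart. Of 3 leukocyte markers tested Cd68, a lysosomal protein also made by fibroblasts, was higher (1.47) and Lyz2 lower, with 0, 0.151, 0 and 0 CPM with clone H and 3.47, 3.85, 2.2 and 3.75 CPM in mono-culture. Of 8 endothelial and mural markers tested Notch3 was higher (1.08) and Rgs5 lower (-2.73), while Pecam1 was at or below 0.44 CPM in all 8 libraries. Of the 4 Y-linked genes 2 were higher (1 without clone H replicate 3 or 4 or mono-culture replicate 4), among them Ddx3y (0.87), Kdm5d was lower (-0.46) and Uty was not called.

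Secreted signals changed strongly. Of 6 ligands of the epidermal growth factor receptor 5 were higher and 0 lower, with a median of 1.97. Areg, amphiregulin, had 6.28, 8.38, 9.13 and 3.27 CPM with clone H and 0.275, 0.055, 0.152 and 0.137 CPM in mono-culture (log2 fold change 5.39, SE 0.81, adjusted p = 2.33e-06). At such levels in mono-culture Areg passed the filter on low counts through co-cultures and could hardly be called lower. The shares of all genes are therefore no fair comparison for this member. Ereg, epiregulin, had 44.2, 66.4, 72.998 and 23.9 CPM with clone H and 5.5, 5.66, 6.08 and 5.12 CPM in mono-culture (log2 fold change 3.22, SE 0.36, adjusted p = 2.43e-08). Hbegf, heparin-binding EGF, had 85.4, 105, 137 and 54.5 CPM with clone H and 10.6, 15.4, 14.1 and 13.8 CPM in mono-culture (log2 fold change 2.82, SE 0.33, adjusted p = 4.56e-08). In all 3 genes the groups were separate and replicate 4 was the lowest of the clone H libraries. Tgfa was not called (log2 fold change 0.61). In the whole list of growth factors 13 of 23 were higher and 4 lower. Pdgfc, with 40.9, 40.99, 45.6 and 38.6 CPM with clone H and 16.7, 18.1, 19.5 and 18.1 CPM in mono-culture, and Vegfc (0.77) rose, as did the binding protein gene Igfbp3, with 20.3, 13.9, 43.4 and 32.2 CPM with clone H and 1.98, 4.01, 1.52 and 3.11 CPM in mono-culture. The members called lower were Igfbp5, Igfbp6 (-1.51), Fgf18 (-3.33) and Gas6, a ligand of the AXL receptor, with 0.599, 0.656, 0.361 and 0.349 CPM with clone H and 5.28, 4.23, 4.71 and 5.39 CPM in mono-culture.

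Immediate early genes and feedback inhibitors of MAP kinase signalling were higher in 12 of 18 and lower in 1, with the highest list median, 1.45. Dusp4, a phosphatase that inactivates MAP kinases, had 206, 215, 293 and 142 CPM with clone H and 29.7, 31.01, 29.6 and 33.3 CPM in mono-culture (log2 fold change 2.79, SE 0.23, adjusted p = 1.36e-10). Dusp6, specific for ERK, had 176, 151, 219 and 91.1 CPM with clone H and 16.6, 32.6, 50.2 and 14.3 CPM in mono-culture (log2 fold change 2.50, SE 0.38, adjusted p = 2.84e-06), and the AP-1 subunit Fosl1 had a log2 fold change of 2.66. Replicate 3 of clone H was the highest in 15 of the 18 genes and replicate 4 the lowest in 16. Fos was not called (log2 fold change -0.58, SE 0.70, adjusted p = 0.508). It had 176, 105, 202 and 109.8 CPM with clone H and 57.2, 331, 449.7 and 47.2 CPM in mono-culture, and the clone H libraries lay within the range of mono-culture. Spry2 was lower (-0.52), and its call was lost without clone H replicate 4 (adjusted p = 0.0789) and without mono-culture replicate 2 (0.0567).

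Of 34 inflammatory chemokines, cytokines and feedback genes 26 were tested, and 13 were higher and 1 lower, with a median of 1.02. Cytokines were higher in 7 of 10. Il6, a cytokine of inflammatory fibroblasts, had 6.17, 9.9, 8.31 and 5.19 CPM with clone H and 0.495, 0.55, 0.608 and 0.32 CPM in mono-culture (log2 fold change 3.92, SE 0.42, adjusted p = 7.71e-09). Like Areg, it was low in mono-culture and passed the filter through co-cultures, so a call in the lower direction was hardly open to it. Lif, a relative of Il6, had 16.9, 22.01, 21.98 and 8.59 CPM with clone H and 2.04, 2.14, 2.28 and 2.83 CPM in mono-culture (log2 fold change 2.89, SE 0.45, adjusted p = 4.32e-06). The alarmins Il33 and Tslp rose in every clone H library as well, with 25.5, 41.95, 24.7 and 26.9 CPM with clone H and 5.39, 4.95, 3.72 and 4.25 CPM in mono-culture for Il33 and 9.1, 12.6, 12.3 and 10.3 CPM with clone H and 1.1, 1.37, 1.29 and 0.959 CPM in mono-culture for Tslp. Chemokines were mixed. Cxcl12, a stromal chemokine for lymphocytes, was the only member of the list called lower, with 77.6, 212, 64.9 and 211 CPM with clone H and 1638, 1666, 1339.7 and 1278 CPM in mono-culture (log2 fold change -3.39, SE 0.40, adjusted p = 6.8e-08). Replicates 1 and 3 of clone H were lower than replicates 2 and 4 for this gene, and all 4 lay below mono-culture. Ccl7, a monocyte chemokine, had 27.2, 45.5, 47.4 and 26.7 CPM with clone H and 16.2, 15.8, 19.5 and 14.6 CPM in mono-culture (log2 fold change 1.15, SE 0.38, adjusted p = 0.0114). Ccl2 was not called although its groups did not overlap, with 149, 143, 195 and 118 CPM with clone H and 92.1, 88.6, 90.8 and 90.9 CPM in mono-culture (log2 fold change 0.74, SE 0.40, adjusted p = 0.123), nor was Cxcl1 (log2 fold change 1.37, SE 0.78, adjusted p = 0.137). With only the 8 libraries compared in the fit, Ccl2 was called (log2 fold change 0.73, adjusted p = 0.000432). Ptgs2 (COX-2), the inducible enzyme of prostaglandin synthesis, had 206, 274, 349 and 101 CPM with clone H and 17.4, 28.04, 35.1 and 21.1 CPM in mono-culture (log2 fold change 3.20, SE 0.37, adjusted p = 3.56e-08). The list of retinoid and prostaglandin genes to which it belongs had 5 of 16 higher and 3 lower, and its higher count was 3 without clone H replicate 1 or without mono-culture replicate 1, 2 or 4. Among the lower genes were the retinoid genes Aldh1a1 (-2.44) and Crabp1 (-1.53).

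**Figure D4:**
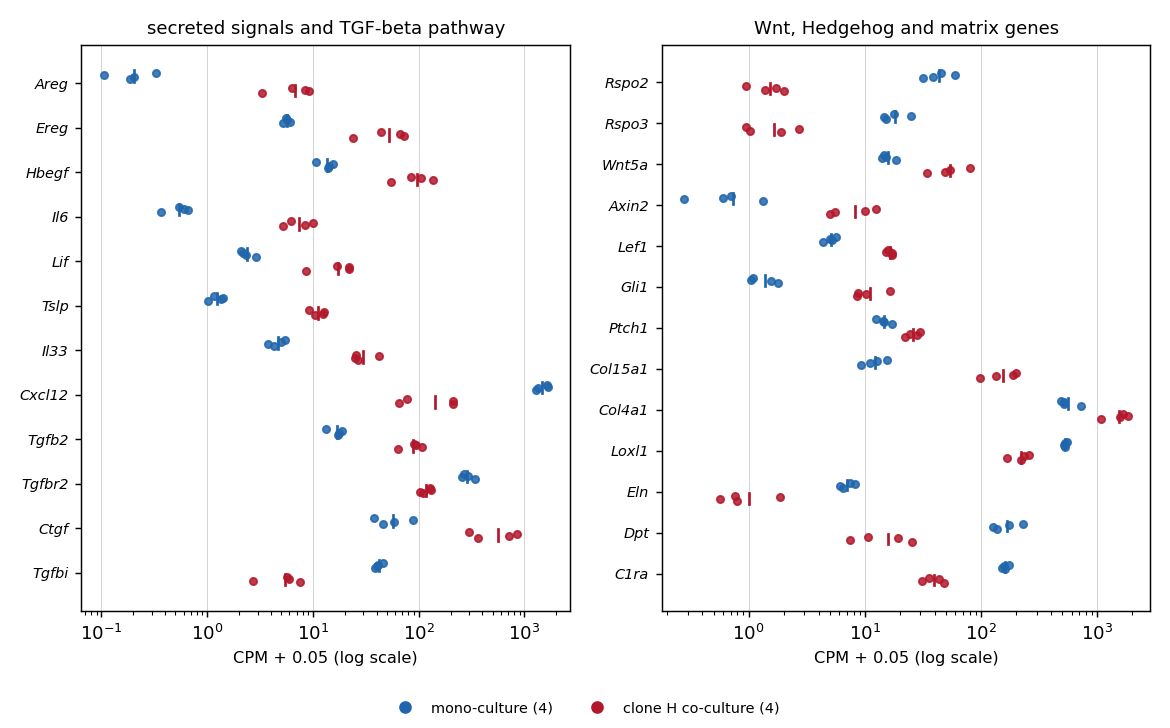
CPM plus 0.05 on a log axis for 12 genes of secreted signals and the TGF-beta pathway (left) and 13 Wnt, Hedgehog and matrix genes (right), a point per library and a short bar at the group mean. The groups are separate in all 25 genes, and Cxcl12, Tgfbr2, Tgfbi, Rspo2, Rspo3, Loxl1, Eln, Dpt and C1ra lie lower with clone H (red).

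All 14 tested genes of the TGF-beta pathway were called, 11 higher and 3 lower. The 3 ligands rose, with Tgfb2 the most changed at 90.02, 93.8, 108 and 63.2 CPM with clone H and 13.3, 18.97, 17.5 and 17.2 CPM in mono-culture (log2 fold change 2.41, SE 0.21, adjusted p = 3.97e-10). Targets were led by Ctgf, connective tissue growth factor, with 302, 846, 711 and 366 CPM with clone H and 37.8, 87.5, 58.4 and 46.3 CPM in mono-culture (log2 fold change 3.27, SE 0.45, adjusted p = 6.08e-07). Replicates 2 and 3 were the higher clone H libraries. The inhibitory Smad7 and Skil had log2 fold changes of 1.11 and 1.57. Receptors moved apart: Tgfbr1 was higher (0.59), while Tgfbr2 had 128, 129, 103 and 111 CPM with clone H and 267, 294, 258 and 338 CPM in mono-culture (log2 fold change -1.30, SE 0.15, adjusted p = 4.17e-08) and Tgfbr3 was lower (-0.66). The target Tgfbi also fell, with 5.63, 5.91, 2.68 and 7.46 CPM with clone H and 46.4, 41.4, 40.4 and 38.7 CPM in mono-culture (log2 fold change -2.94, SE 0.32, adjusted p = 1.27e-08). YAP and TEAD targets were higher in 7 of 10 and lower in 2, among them Cyr61 with 1196, 1606, 1662 and 839 CPM with clone H and 196, 588, 551 and 194 CPM in mono-culture (log2 fold change 1.79, SE 0.34, adjusted p = 6.12e-05) and Ankrd1 (1.38). Contractile genes were higher in 5 of 14 and lower in 3. Acta2, smooth muscle actin, had 394, 588, 447 and 352 CPM with clone H and 109, 148, 121 and 195 CPM in mono-culture (log2 fold change 1.64, SE 0.38, adjusted p = 0.000613), and Tagln had a log2 fold change of 1.77, while Lmod1 was lower (-0.75).

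Matrix genes moved in both directions. Of 15 basement membrane genes 8 were higher and 4 lower, with a median of 0.75. Col15a1, a collagen of the basement membrane zone, had 200.2, 189, 134 and 97.3 CPM with clone H and 15.4, 12.6, 10.9 and 9.27 CPM in mono-culture (log2 fold change 3.68, SE 0.27, adjusted p = 1.76e-11), and Col18a1 had 575, 504, 654 and 377 CPM with clone H and 105, 114, 115 and 112 CPM in mono-culture (log2 fold change 2.24, SE 0.23, adjusted p = 6.03e-09). The collagen IV chains Col4a1 and Col4a2 rose by similar amounts (1.45 and 1.47), as did the laminin chains Lama5 (1.29), Lamb1 (0.83) and Lamc1 (0.96), whereas Lamb2 (-0.95) and Nid2 (-0.72) fell. Replicate 4 was the lowest clone H library in 11 of the 15, and the count called lower was 2 without clone H replicate 3 or 4 or without mono-culture replicate 1 or 2. Fibrillar collagens were higher in 3 of 7 and lower in 2: Col5a3 had 640.1, 526, 470.3 and 300.4 CPM with clone H and 149, 149, 178 and 208 CPM in mono-culture, while Col1a2 was lower (-0.56) and Col1a1 was not called (log2 fold change -0.46, SE 0.20, adjusted p = 0.0569), though with DESeq2 it was (adjusted p = 0.0388). The count called lower was 3 without clone H replicate 1 and 1 without clone H replicate 3 or 4 or without any 1 of the mono-culture libraries, and the count called higher was 2 to 4. Of 15 collagen processing enzymes 6 were higher and 3 lower. Among the crosslinking enzymes Loxl3 (1.17) and Loxl4 (0.88) were higher and Lox (-0.98) and Loxl1 lower, the latter with 257, 234, 168 and 219.9 CPM with clone H and 548, 527, 519.9 and 522 CPM in mono-culture (log2 fold change -1.27, SE 0.19, adjusted p = 1.59e-06).

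Of 20 matrix glycoproteins 9 were higher and 8 lower. Tnc, tenascin C of provisional matrix, had 883, 1193, 826 and 473 CPM with clone H and 197, 251, 189 and 213 CPM in mono-culture (log2 fold change 1.99, SE 0.32, adjusted p = 7.76e-06). The elastic fibre genes Eln and Mfap2 fell, Eln with 0.718, 1.82, 0.516 and 0.742 CPM with clone H and 7.37, 8.14, 6.005 and 6.44 CPM in mono-culture (log2 fold change -2.87, SE 0.49, adjusted p = 1.38e-05) and Mfap2 with a log2 fold change of -2.03. Postn (0.89), Thbs2 (1.03) and Fn1 (0.83) rose, and Fn1 in replicate 4 lay within the range of mono-culture, with 11089, 9792, 8922 and 4571 CPM with clone H and 4901, 5422, 4574 and 4433 CPM in mono-culture. Spp1 had 2647, 1748, 2198 and 1764 CPM with clone H and 224, 167, 169 and 223 CPM in mono-culture (log2 fold change 3.42, SE 0.39, adjusted p = 3.73e-08). Matrix proteinases and their inhibitors were higher in 6 of 17 and lower in 7. Mmp2 (-1.07), Mmp14 (-1.15) and Adamts5 fell, Adamts5 with 219, 257, 188 and 235 CPM with clone H and 728, 949, 803 and 886 CPM in mono-culture. The inhibitor Timp1 rose (1.15) and Timp2 fell (-1.22).

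The genes listed as Wnt targets and most of those listed for the Hedgehog response rose. Of 20 Wnt genes 8 were higher and 6 lower. All 5 tested targets rose, with Axin2, the feedback scaffold of the pathway, at 12.4, 9.9, 5.52 and 4.93 CPM with clone H and 0.66, 0.55, 0.228 and 1.28 CPM in mono-culture (log2 fold change 3.48, SE 0.51, adjusted p = 1.97e-06) and the transcription factor gene Lef1 at 15.9, 15.1, 17.2 and 17.2 CPM with clone H and 5.61, 5.004, 5.17 and 4.29 CPM in mono-culture. Beside Rspo2, Rspo3 fell, with 0.898, 2.68, 0.98 and 1.83 CPM with clone H and 17.7, 25.02, 14.6 and 15.2 CPM in mono-culture (log2 fold change -3.49, SE 0.33, adjusted p = 9.24e-10). Wnt5a rose (1.79) and the antagonist Sfrp2 fell (-2.13). Notum, which Wnt signals also induce, was not counted among the 5 targets, and its groups overlapped, as given below. Of 7 Hedgehog response genes 4 were higher and 2 lower. Gli1, the usual readout of the pathway, had 16.3, 8.63, 10.3 and 8.55 CPM with clone H and 1.05, 0.99, 1.52 and 1.74 CPM in mono-culture (log2 fold change 3.04, SE 0.35, adjusted p = 3.51e-08). Ptch1 and Hhip rose too (0.82 and 2.42), while the receptor Smo (-0.79) and Gli2 (-0.85) fell. Among 14 BMP and Id genes 5 were higher and 3 lower. Among the 5 were the activin subunits Inhba (2.93) and Inhbb (2.39) and the antagonists Grem1 and Fst, with Grem1, gremlin, at 845, 577, 623 and 406 CPM with clone H and 236, 198, 192 and 161 CPM in mono-culture (log2 fold change 1.64, SE 0.25, adjusted p = 3.21e-06). Bmp4 (-0.98) and the targets Id2 (-1.66) and Smad9 (-1.25) fell. Of 18 semaphorin and ephrin genes 7 were higher and 4 lower. Sema3c, a guidance cue, had 11.6, 19.1, 20.1 and 23.1 CPM with clone H and 277, 350.4, 276 and 288 CPM in mono-culture (log2 fold change -4.01, SE 0.35, adjusted p = 4.29e-10), and the membrane-anchored Sema7a had 61.6, 53.1, 26.98 and 31.8 CPM with clone H and 5.34, 3.19, 3.72 and 4.34 CPM in mono-culture (log2 fold change 3.38, SE 0.36, adjusted p = 9.94e-09).

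Lipid genes tended to be lower. Of 20 sterol synthesis genes 11 were lower and 1 higher, with a median of -0.43. Mvk, mevalonate kinase, had 31.7, 23.7, 23.5 and 23.4 CPM with clone H and 73.3, 90.1, 87.3 and 89.7 CPM in mono-culture (log2 fold change -1.73, SE 0.17, adjusted p = 1.37e-09), and the regulator Insig1 had 221, 201, 232 and 199.9 CPM with clone H and 373, 434, 451 and 401 CPM in mono-culture (log2 fold change -0.96, SE 0.15, adjusted p = 3.71e-06). Of 13 fatty acid and adipogenic genes 5 were lower and 0 higher, with Plin4, a lipid droplet protein gene, at 6.28, 5.7, 5.67 and 9.29 CPM with clone H and 60.7, 41.8, 49.3 and 39.7 CPM in mono-culture (log2 fold change -2.82, SE 0.33, adjusted p = 3.96e-08). Glycolysis genes were higher in 7 of 19 and lower in 1, the latter call being lost without clone H replicate 3 or 4 or mono-culture replicate 2 or 4. Hk2, hexokinase 2, had 74.2, 72.5, 93.8 and 38.3 CPM with clone H and 14.7, 18.3, 13.6 and 16.9 CPM in mono-culture (log2 fold change 2.13, SE 0.26, adjusted p = 1.06e-07), and Pfkfb3, which makes an activator of glycolysis, had a log2 fold change of 1.80. Hypoxia response genes had 2 of 10 higher, Vegfa (1.44) and Egln3 (1.56), and 1 lower, Adm (-1.64), which is under the background share.

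Endoplasmic reticulum chaperones were higher in 9 of 18 and lower in 2, with a median of 0.19. Hspa5 (BiP) had 591, 719, 1030 and 819 CPM with clone H and 428, 479, 425 and 508 CPM in mono-culture (log2 fold change 0.78, SE 0.17, adjusted p = 0.000236), and Xbp1 had a log2 fold change of 0.94. NRF2 antioxidant genes were divided, with 3 of 12 higher and 3 lower: Txnrd1 rose (0.62), and Nqo1 had 17.2, 13.7, 11.2 and 16.2 CPM with clone H and 42.9, 48.3, 47.9 and 41.4 CPM in mono-culture (log2 fold change -1.63, SE 0.25, adjusted p = 3.03e-06). Metallothioneins, which bind zinc and copper, fell: Mt1 had 49.3, 44.1, 41.1 and 68.3 CPM with clone H and 254, 264, 249 and 191 CPM in mono-culture (log2 fold change -2.24, SE 0.28, adjusted p = 1.7e-07) and Mt2 had 0.359, 0.808, 1.19 and 1.09 CPM with clone H and 18.7, 17.5, 17.9 and 15.3 CPM in mono-culture (log2 fold change -4.30, SE 0.66, adjusted p = 2.87e-06). The zinc importer gene Slc39a10 of the same list of 4 tested genes rose, with 198, 242, 249.7 and 164 CPM with clone H and 43.5, 44.2, 37.1 and 42.1 CPM in mono-culture (log2 fold change 2.35, SE 0.15, adjusted p = 1.28e-12). Of 15 circadian output genes 9 were higher and 2 lower. Nfil3, a repressor that competes for the sites of HLF, had 32.2, 48.4, 51.6 and 30.1 CPM with clone H and 11.9, 13.9, 12.2 and 15.7 CPM in mono-culture (log2 fold change 1.59, SE 0.24, adjusted p = 2.57e-06), Nr1d1 and Arntl had log2 fold changes of 1.44 and 1.18, and Tef, a relative of HLF, was lower (-0.56).

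Clone H was also set against the mean of the other 7 co-cultures, a comparison that does not use the mono-culture libraries but shares the clone H libraries with the first. In it 4075 genes (28.2%) were called, 2246 higher (15.6%) and 1829 lower (12.7%). The count fell to 2389 without clone H replicate 3 and to 2614 without replicate 2. In 2 genes of 14439 the 4 clone H libraries lay beyond all 28 libraries of the other 7 lines. Kif24 (chr4:41390745-41464887), a kinesin that restrains the assembly of cilia, was among them, with 17.2, 17.1, 22.03 and 17.8 CPM with clone H and 8.95 to 15.6 CPM in the other co-cultures (log2 fold change 0.62, SE 0.09, adjusted p = 1.89e-05). In mono-culture it had 13.2, 10.9, 12.8 and 14.1 CPM. The other gene was Ocln, occludin, a tight junction protein, named after its values were seen, with 0 to 0.12 CPM with clone H and 0.192 to 5.67 CPM in the other co-cultures, and it was at or under the floor with clone H.

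The ATF4 pathway was higher with clone H than with the mean of the other lines in 42 of 51 genes and lower in 1, against 15.6% and 12.7% of all genes. Asns had a log2 fold change of 0.79, Gpt2 1.05, Chac1 1.17 and Ddit3 0.97 in this contrast, and Atf5 was again lower (log2 fold change -0.88, SE 0.19, adjusted p = 0.000796). Mean log2 CPM of the list was 7.56 with clone H, next to 7.57 with KPC1, 7.73 with clone V and 7.39 with clone T, and 6.19 to 6.88 with clones E, K, M and N. The libraries of clones H, V, T and KPC1 overlapped.

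**Figure D5:**
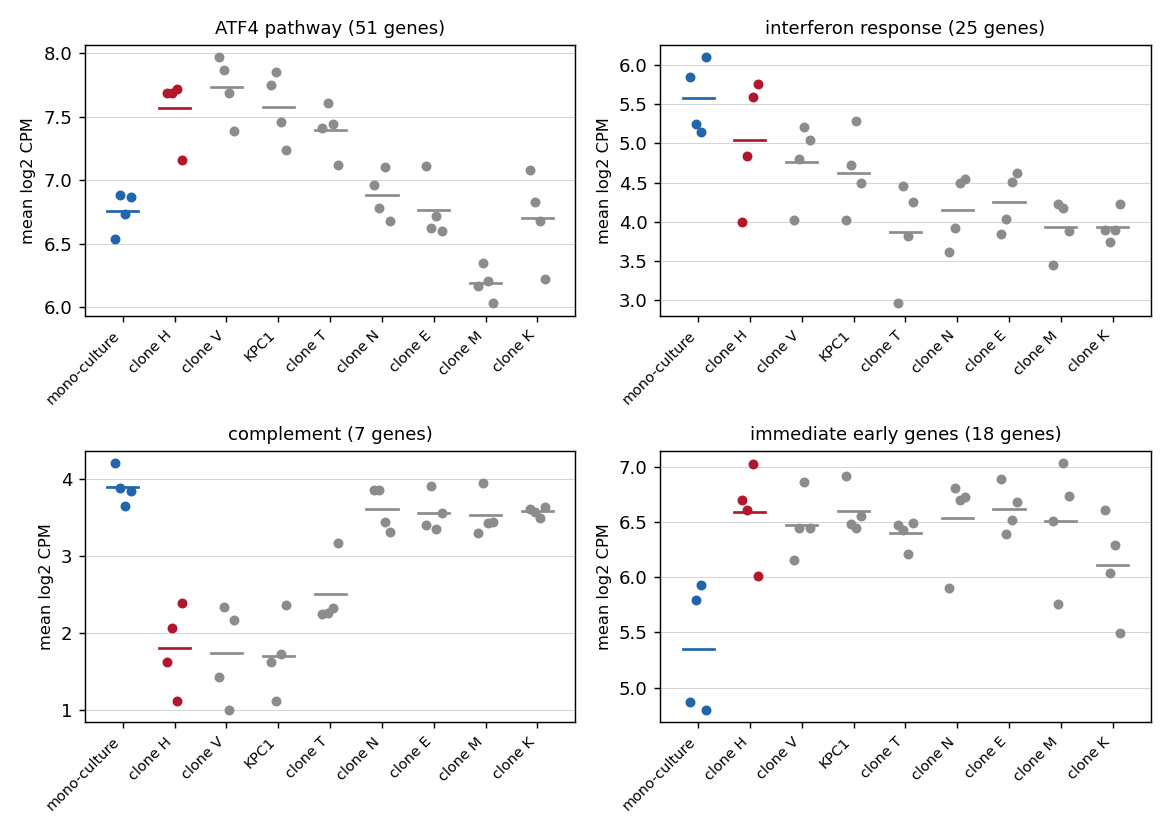
Mean log2 CPM over the tested members of 4 gene lists in each library of the 9 groups; horizontal bars are the means of 4 libraries. Clone H (red) lies with clones V and T and KPC1 in the ATF4 list, between mono-culture (blue) and clone V in the mean of the interferon list, and lowest with clone V and KPC1 in the complement list.

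Interferon response genes, which mostly overlapped with mono-culture, were higher with clone H than with the mean of the other co-cultures in 20 of 25 and lower in 0, with a median of 0.88. Rsad2 (viperin) had 7.78, 12.9, 25.7 and 18.3 CPM with clone H, 18.04, 12.7, 10.3 and 20.1 CPM in mono-culture and a median of 2.97 CPM over the 28 other co-culture libraries (log2 fold change 2.01, SE 0.25, adjusted p = 2.52e-06). Ifi44 and Cmpk2 had log2 fold changes of 1.70 and 1.40. The number called higher was 22 without clone H replicate 1, 19 without replicate 2, 14 without replicate 3 and 9 without replicate 4, the library with the highest level. Mean log2 CPM of the list was 5.05 with clone H, 4.77 with clone V, 4.63 with KPC1 and 3.87 to 4.25 with the other 5 lines, against 5.58 in mono-culture, and the libraries of clone H (4.0 to 5.76) overlapped with those of clone V (4.02 to 5.21). Antigen presentation genes were higher in 7 of 11 and lower in 0.

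Complement genes were lower with clone H than with the mean of the other co-cultures in 7 of 7, and in 2 without clone H replicate 3. Wnt genes were lower in 11 of 20, in 6 without clone H replicate 3, and higher in 2, in 1 without replicate 2, 3 or 4. Notum, an extracellular inhibitor that Wnt signals induce, had a log2 fold change of -2.03 in this contrast, with 0.718, 1.11, 0.567 and 0.872 CPM with clone H and 1.27, 0.77, 0.836 and 0.411 CPM in mono-culture. Axin2, higher than in mono-culture, was lower than in the other co-cultures (log2 fold change -1.06, SE 0.32, adjusted p = 0.0124), a call lost without clone H replicate 3 (adjusted p = 0.0758) or 4 (0.0636). BMP and Id genes were lower in 8 of 14, in 5 without clone H replicate 2, and higher in 2, in 0 without replicate 1, 2 or 3, with Id4 at -2.54 and Id3 at -1.26. DNA replication and mitosis genes were higher in 15 of 30 and lower in 0, and in 8 without clone H replicate 2. Mean log2 CPM of the Wnt list was 1.82 with clone H, 1.89 with KPC1 and 1.96 with clone V. The remaining lines had 2.29 to 3.42. For BMP and Id genes the means were 3.51, 3.43 and 3.25 in the same order, against 4.31 to 4.96. For DNA replication and mitosis genes they were 7.18, 7.01 and 7.25, against 6.65 to 6.86. The levels of these lists were thus not particular to clone H.

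Clone V was set directly against clone H, a choice made with earlier results of these data known. Here 56 genes (0.388%) were called, 42 higher and 14 lower with clone H. The count depended on the libraries, from 17 without clone H replicate 3 or clone V replicate 1 to 127 without clone V replicate 4. Palmd was higher with clone H (log2 fold change 3.66, SE 0.82, adjusted p = 0.0403), with 0.814, 0.529, 1.96 and 3.05 CPM with clone V. Anxa8, an annexin of epithelia, had 15.6, 7.42, 25.5 and 18.3 CPM with clone H and 0.61, 0.144, 0.817 and 3.23 CPM with clone V (log2 fold change 3.87, SE 0.83, adjusted p = 0.0256). Cd38, an enzyme that degrades NAD, had 4.61, 2.22, 4.23 and 2.75 CPM and 0.508, 1.78, 0.49 and 0.538 CPM (log2 fold change 2.02, SE 0.42, adjusted p = 0.0195). Lower with clone H than with clone V were 2 neighbouring imprinted genes on chromosome 7. H19 (chr7:142575529-142578143), a long non-coding RNA, had 11.6, 20.95, 10.99 and 32.5 CPM with clone H and 152, 181, 66.3 and 111 CPM with clone V (log2 fold change -2.74, SE 0.59, adjusted p = 0.0256). Igf2 (chr7:142650766-142666816), insulin-like growth factor 2, had 0.599, 1.11, 0.98 and 1.4 CPM and 3.76, 6.93, 2.94 and 3.95 CPM (log2 fold change -2.09, SE 0.42, adjusted p = 0.0172). Tnfsf18, the ligand of the receptor GITR, had 0.898, 1.41, 0.98 and 1.05 CPM and 1.88, 7.17, 4.19 and 3.29 CPM (log2 fold change -1.92, SE 0.39, adjusted p = 0.0172). Against mono-culture H19 (log2 fold change 2.72, adjusted p = 0.000772) and Tnfsf18 (2.54, adjusted p = 7.25e-05) were higher with clone H, and Igf2 was not called. H19 was also higher with clone H than in the mean of the other 7 co-cultures (1.41, adjusted p = 0.00901). Clone V had the highest group mean of the other 7 co-cultures for H19, Igf2 and Tnfsf18, and the lowest for Palmd and Anxa8. Palmd was highest with clone T (33.1 CPM) and Anxa8 with clone N (115 CPM). The part of RNA from tumour cells in these 2 genes was not tested. The 6 genes named here were chosen among those in which the 4 libraries of clone H and the 4 of clone V did not overlap. With only these 8 libraries fitted all 6 calls were lost, at adjusted p = 0.102 to 0.253, and with no filter on low counts those of Anxa8, Palmd and H19 were, at 0.0538 to 0.0966. Without clone H replicate 1 all 6 calls were lost, at adjusted p = 0.0605 to 0.103, and without replicate 3 likewise, at 0.0548 to 0.109. Leaving out clone H replicate 4 or clone V replicate 1, 2 or 3 ended the calls of 3, 4, 5 and 3 of the 6, and leaving out clone H replicate 2 that of H19.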

How the data were processed

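RNA was sequenced from 36 libraries of sorted fibroblasts, 4 in each of 9 groups. The authors deposited gene counts as whole numbers, and beside them RPKM values, which are scaled by library depth and gene length. The submitters' processing notes name STAR, featureCounts, edgeR and the mm10 build without versions, and the labels describe strand-specific poly(A) libraries. Counting of reads that fit several genes is not given in the sources used here.

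From the deposited counts, 14439 of 39017 genes passed filterByExpr and were fitted with edgeR 4.0.16 in R 4.3.3 over all 36 libraries, with TMM scaling, 1 coefficient per group and the quasi-likelihood F-test. P-values were adjusted over all genes tested by Benjamini-Hochberg, and genes under 0.05 were called. DESeq2 1.42.0 and limma 3.58.1 on log2(RPKM + 1) and log2(RPKM + 0.1) were alternatives, as were other scalings and filters, a replicate block and leaving out each library. Scripts were tested on simulated data. CPM are counts per 1000000 after TMM scaling, taken to the log2 scale with 1 prior count. Coordinates are those of GENCODE M21 on GRCm38. A count of 0 was set against a floor of 3 counts per library, which covers counting error only.

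The comparison, the gene lists and the members named were chosen with earlier results of these data known. Genes named outside the lists were the 10 highest and 10 lowest fold changes against mono-culture, up to 5 each way against the other co-cultures and 3 each way against clone V, among genes called, with a mean of at least 2 CPM and no overlap between groups. Values of some list members are not reported here.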

Additional observations from a re-analysis of the deposited data

Results flagged for a closer look

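Each group of 4 libraries was searched for a library far from the other 3, in 120 groups of values, and 11 stood apart, where chance alone gives about 1 in 20. Clone H replicate 4 had a scaling factor of 1.043, against 0.958 to 0.963 in the other 3 clone H libraries, and the lowest mean of the ATF4 pathway, 7.16 log2 CPM against 7.69 to 7.72. Neither was particular to clone H: replicate 4 had the lowest ATF4 mean in every co-culture and the highest scaling factor in all but clone N. Clone H replicate 1 had the lowest mean of the metallothioneins and zinc transporters, 3.59 log2 CPM against 4.05 to 4.14, and clone H replicate 3 the lowest Gdpd2, 0.258 CPM against 1.003 to 1.14 CPM. In mono-culture replicate 4 had a mean of 5.29 log2 CPM for the contractile genes, against 5.09 to 5.12, and 5.04 for the metallothioneins and zinc transporters, against 5.15 to 5.16. Bmp3 in mono-culture replicate 3 was 4.79 CPM against 8.20 to 8.91 CPM. The other 4 were genes at 0 in 3 mono-culture libraries and just above 0 in the remaining library: Krt8 in replicate 4 (0.0914 CPM), Ifi202b in replicate 3 (0.0760 CPM), Cdh13 in replicate 2 (0.0550 CPM) and Cadm1 in replicate 1 (0.110 CPM). Such a pattern always stands apart by this rule, so the rate of 1 in 20 does not apply to these 4, and the count of 11 is no excess over chance.

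Differences between clone H and other co-cultures were tested in the fit itself. Kif24 differed from the mean of the other 7 co-cultures by a log2 fold change of 0.62. Between clone H and clone V the log2 fold changes were 3.87 for Anxa8, 3.66 for Palmd and 2.02 for Cd38, higher with clone H, and -2.74 for H19, -2.09 for Igf2 and -1.92 for Tnfsf18, lower with clone H.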

How the results depend on the processing

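Against mono-culture 7826 genes were called, 6922 to 7762 when 1 library was left out and 2479 with a fitted change of at least 2-fold. DESeq2 called 7923, RLE scaling 7809, library totals 7647, a fit with no filter 7557, a minimum of 10 counts per library 6844, limma 7496 and 7615, and the 8 libraries alone 7894. Not every pair of like-numbered libraries correlated over 0.1 in its deviations. The range was -0.42 to -0.04 for clone H with mono-culture and 0.02 to 0.36 for clone H with clone V. The main fits were therefore not paired by replicate number, and the fit with a replicate block called 8395. Among the co-cultures, though, replicate number went with a shared shift: replicate 4 had the lowest ATF4 mean in every one. The main fits against the other 7 co-cultures and clone V leave that shift in the spread. Against the other 7 co-cultures 4075 were called, 2389 to 4073 with a clone H library left out, 542 at 2-fold, 4345 with DESeq2 and 4925 with the replicate block. Against clone V 56 were called, 172 with DESeq2, 142 with the replicate block, 23 with at least 10 counts, 35 with limma on log2(RPKM + 1), 37 at 2-fold, 1 with the 8 libraries alone and 17 to 127 with a library left out. The fits on 8 libraries have fewer samples behind the spread, and the cause of the other changes was not tested. Of 37 lists, medians moved by more than the spread between libraries in 32 of 629 fits. The fold change of Fos, not called, was 0.03 without mono-culture replicate 3 and -0.92 without mono-culture replicate 4, and it turned direction in the former alone. Cbs and Col1a1, not called, were each called under 7 alternatives, not counting those that left out 1 library, with DESeq2 at adjusted p = 0.0463 and 0.0388. Library totals moved the median of all genes to -0.081. Depth limits genes near 0 in a group, where a library cannot show less than 1 count.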
